A study of Homo sapiens with 23 samples.

Results

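Interferon-stimulated genes are the genes that a cell switches on when interferon reaches its receptors, and 39 of them were followed here through transfection of a human cell line with plasmid DNA. They were taken by symbol from the annotation of the arrays, which gave 69 probe sets of 54613 (an Affymetrix probe set is a group of short probes read together for 1 transcript). All 39 genes were represented, of 20066 genes named in the annotation. The data came from 23 arrays of HEK293T cells, an embryonic kidney line of human origin with the large T antigen of SV40. Cells met polyplexes, which are particles of a cationic polymer, branched polyethylenimine, and a plasmid, pEGFP-LUC, that encodes green fluorescent protein (GFP) and luciferase, 18 h after seeding. At 2 h, unsorted treated cells (3 arrays) were set against cells that had received no polyplexes (2 arrays). At 8, 16 and 24 h, cells from treated cultures were sorted into GFP+ cells, labelled transfected, and GFP- cells, labelled untransfected, with 3 arrays each. Both sorted populations had therefore met polyplexes, and the comparisons at these times were between expressing and non-expressing cells, not against cells left alone. The source name of GFP+ replicate 3 at 8 h gives its time as 16 h, against its title and description, which were followed. The arrays of 24 h match the means in the authors' deposited table for no probe set, so they are described last and apart. The labels call the arrays biological replicates, and the design text has the treated experiments run on 3 days and the controls in duplicate. No label ties an array to its day, and whether the untreated arrays came from separate cultures is not stated, so at 2 h the p-values may in part measure technical spread.

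Type I interferons bind the receptor made of IFNAR1 and IFNAR2, whose kinases JAK1 and TYK2 activate STAT proteins. STAT2 joins IRF9 in a complex that binds the interferon-stimulated response element in promoters. The genes it switches on encode proteins that detect or degrade foreign RNA, block translation or hold viruses at membranes. Cytosolic DNA and RNA can start the same programme by way of IRF3, before any interferon is made, and some members, IFIT1 and ISG15 among them, are direct targets of IRF3. Plasmid DNA delivered to the cytosol is a known trigger in many cell types, whereas HEK293T cells are known to have little of the cGAS and STING pathway that senses DNA.

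Promoters are shown here for the members that passed a test (IFIT5, ISG20 and IFI27), for IFIT1 and IFIT3 of the IFIT family and for ISG15, the member with the largest positive change at 2 h, because they carry the element through which interferon acts. Promoters came from RefSeq on GRCh38.p14, as windows of 250 bases before and 50 after each start site, and were searched on both strands for the core of the interferon-stimulated response element, which is GAAA, any 2 bases and GAAA again, and for TTCNNNGAA, the gamma-activated site. Of 35093 promoters, 1255 (3.58%) held the first motif. Of the 32 member genes with a promoter entry, 23 (71.9%) held it in at least 1 of their promoters. The gamma-activated site was in 2687 (7.66%) of all promoters and in 12 (37.5%) of these member genes. The shares are unlike measures, since the first counts promoters and the second counts genes, some of which have 2 or 3 promoters. In the windows below, written 5′ to 3′ on the plus strand, which is the strand of each of these genes, capitals mark the matches to the response element core or its reverse complement.
IFIT5, chr10:89414498-89414567: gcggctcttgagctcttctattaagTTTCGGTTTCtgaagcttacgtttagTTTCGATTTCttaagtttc
IFIT1, chr10:89392482-89392554: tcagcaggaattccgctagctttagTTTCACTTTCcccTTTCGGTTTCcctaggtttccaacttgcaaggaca
IFIT3, chr10:89327816-89327909: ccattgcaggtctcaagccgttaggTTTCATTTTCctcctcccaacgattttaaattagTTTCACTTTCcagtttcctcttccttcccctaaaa
ISG15, chr1:1013359-1013424: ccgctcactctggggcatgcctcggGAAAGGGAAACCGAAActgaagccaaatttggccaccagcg
ISG20, chr15:88638922-88638981: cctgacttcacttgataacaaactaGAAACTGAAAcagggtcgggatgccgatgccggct
IFI27, chr14:94110603-94110675: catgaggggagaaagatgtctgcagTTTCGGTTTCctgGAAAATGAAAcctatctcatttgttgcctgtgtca

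The 3 IFIT genes printed lie on chromosome 10 and each window shows 2 matches, which read TTTC first because the motif stands on the opposite strand. IFIT3 has 2 promoter entries with 4 matches in all, and only 1 of these promoters is printed. IFIT5 has a further match that spans its start site. Only its first bases fall in the printed stretch, at its end and in lower case. In ISG15 the 2 matches overlap, so that the capitals run together. ISG20 has 1 match, in a window from 94 to 35 bases before its start site. IFI27 has 2 in opposite orientations, and a gamma-activated site overlaps both. IFIT2, IFITM2, IRF7, MX2, OAS2, OASL and USP18 were not matched to a promoter.

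The arrays carried no detection calls, so the level of silent genes was taken from the 132 probe sets of olfactory receptors, which a kidney line is not known to use. A probe set was called near background in a group when its mean lay under the 95th percentile of these, which was 4.87 to 5.37 log2 units depending on the group. Between 41 and 49 of the 69 interferon-stimulated probe sets (59.4% to 71% by group) were near background, against 49.3% to 57.1% of all probe sets. Of the 69, 17 were above background in all 8 groups, 13 in some groups and 39 in none.

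By gene, 13 members had a probe set above background in every group. These were the transcription factor genes STAT2, IRF1 and IRF9, the kinase gene EIF2AK2 (PKR, which halts translation on double-stranded RNA), and IFITM1, IFITM2 and IFITM3, which hold viruses at endosomal membranes. The others were ISG15, a ubiquitin-like protein, its ligase HERC5 and its protease USP18, the RNA-binding protein gene IFIT5, IFI6, and the phospholipid scramblase PLSCR1. Another 9 (BST2, HERC6, IFI27, IFI35, IFIT1, IFIT3, IRF7, ISG20 and OASL) crossed the threshold in some groups only. The remaining 17 were near background throughout: MX1 and MX2, the dynamin-like antiviral GTPases; OAS1, OAS2 and OAS3, which make the activator of RNase L; RSAD2 (viperin) and its neighbour CMPK2; IFI44, IFI44L, IFIT2, DDX60, EPSTI1, PARP9, PARP14, SAMD9, SAMD9L and XAF1. For these 17 a value says only that the signal was not told apart from that of silent genes, on an array of this design.

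**Figure D1:**
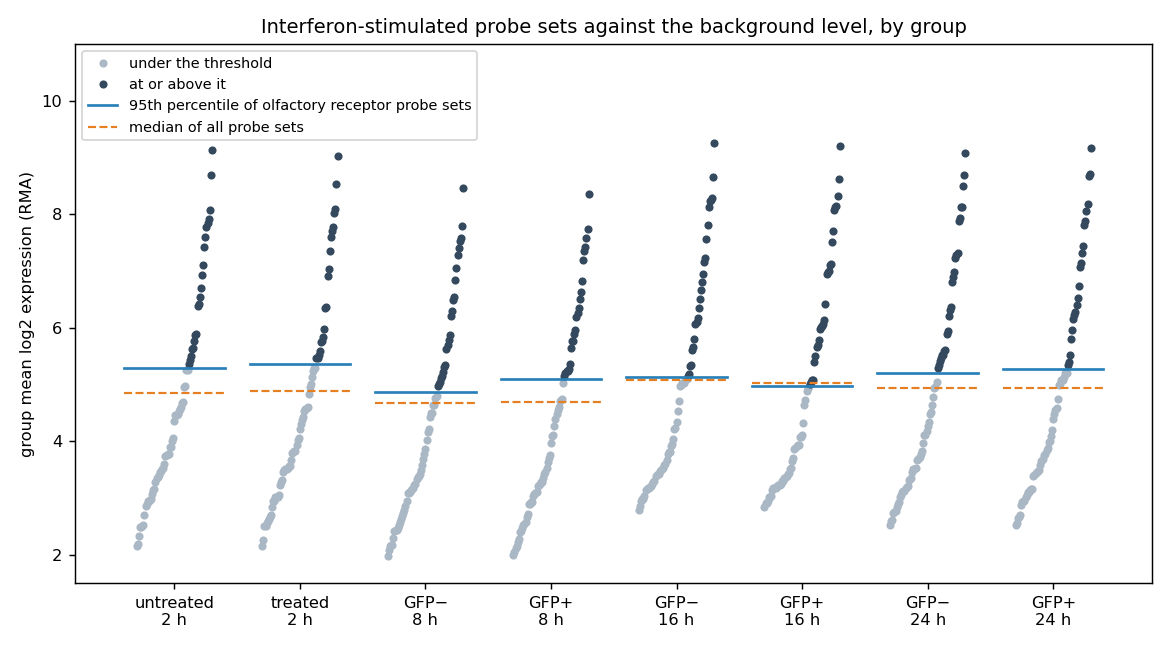
Group mean log2 expression of the 69 interferon-stimulated probe sets in each of the 8 groups (points, sorted within a group), with the 95th percentile of olfactory receptor probe sets (solid line) and the median of all probe sets (dashed line). In every group more members lie under the solid line (41 to 49) than over it (20 to 28).

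Identity of the cells was checked with marker genes. Of 5 genes known in HEK293 cells, 4 (LIN28B, ENO2, KRT8 and KRT18) were above background in all groups, and PAX2 was near background in 6 of 8 groups. Of 5 haematopoietic markers, CD14, CD3E, CD68 and PTPRC were near background in all groups, and the summed level of the 5 moved between 6.69 and 7.13 log2 units over the 23 arrays. Of 6 stromal and endothelial markers, 3 to 5 were near background, with DCN and LUM so in all groups. Among the HEK293 markers, ENO2 was lower in GFP+ cells at 8 h (log2 change -0.71, limma adjusted p = 0.00132) and at 16 h (log2 change -0.42, limma adjusted p = 0.0426).

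The 2 h comparison concerns the early transcript response to polyplexes. IFIT5, which binds RNA with a 5′ triphosphate, fell in treated cells on both of its probe sets, by 2.19-fold and 1.91-fold. No member passed as higher. Of the 69 probe sets, 2 (2.9%) passed, both lower, with passing set at p under 0.05 from limma after Benjamini-Hochberg adjustment over all 54613. Over all probe sets, 300 (0.549%) passed, 117 higher (0.214%) and 183 lower (0.335%). At an unadjusted p under 0.05 there were 6 members, against 5316 probe sets (9.73%) in all.

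Probe set 203595_s_at of IFIT5 read 6.9996 and 7.23 log2 units in untreated cells, and 6.04, 6.23 and 5.68 in treated cells. Probe set 203596_s_at read 6.29 and 6.50 in untreated cells, and 5.50, 5.75 and 5.14 in treated cells. On both, every treated array was below every untreated one. The means were 7.12 ± 0.16 (SD, n = 2) and 5.98 ± 0.28 (SD, n = 3) on the first, a log2 change of -1.13 (SE 0.20, limma adjusted p = 0.0160). On the second they were 6.39 ± 0.15 (SD, n = 2) and 5.46 ± 0.31 (SD, n = 3), a log2 change of -0.93 (SE 0.15, limma adjusted p = 0.0112). The call rests on untreated replicate 2: without it the limma adjusted p was 0.229 and 0.188, and the 2 h arrays fitted alone gave 0.322 and 0.363. Without treated replicate 3, 203595_s_at no longer passed (0.0725). Untreated replicate 2 also stood apart in its BioB hybridization control (8.09 log2 units, against 5.08 to 5.65 in the other 2 h arrays). Treated replicate 1 stood apart in the 3′ minus 5′ signal of ACTB, a measure of RNA quality (2.68, against 1.23 to 1.44). The same measure for GAPDH was 0.29 in that array, against 0.32 to 0.37. The part of these differences in the result was not tested.

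ISG15 was the member with the largest positive change at 2 h and did not pass. It read 6.69 and 6.71 log2 units in untreated cells, and 7.25, 7.23 and 7.57 in treated cells. The groups did not overlap, and the log2 change was 0.65 (SE 0.14, limma adjusted p = 0.0565). HERC5 and HERC6, which attach ISG15 or belong to the same ligase family, and USP18, which removes it, had 0 passing probe sets at 2, 8 and 16 h. PLSCR1 probe set 202430_s_at read 7.20 and 7.65 in untreated cells, and 7.02, 6.998 and 7.08 in treated cells. Its log2 change was -0.39 (limma adjusted p = 0.329).

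IFIT1, the founding member of its family and a sensor of RNA caps that lack a methyl group, read 5.09 and 5.44 log2 units in untreated cells, and 5.09, 5.02 and 4.41 in treated cells. The groups met at 5.09, and the log2 change was -0.43 (limma adjusted p = 0.557). Both means were near background. Over the 69 probe sets the changes at 2 h ran from -1.13 to 0.65 with a median of -0.02, against a median of 0.01 over all probe sets. The 95% interval of the change lay under a 2-fold rise for all 22 member probe sets that were above background in either group.

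A feature of the deposited 2 h values limits small differences: 62.3% of all probe sets, and 47 of the 69, held 1 identical value in 2 or more of the 5 arrays. IFIT2 probe set 226757_at was identical in all 5. In contrast, at 8, 16 and 24 h, 4, 1 and 2 members held such a value. The 5 values of each IFIT5 probe set and of ISG15 were all different from one another.

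**Figure D2:**
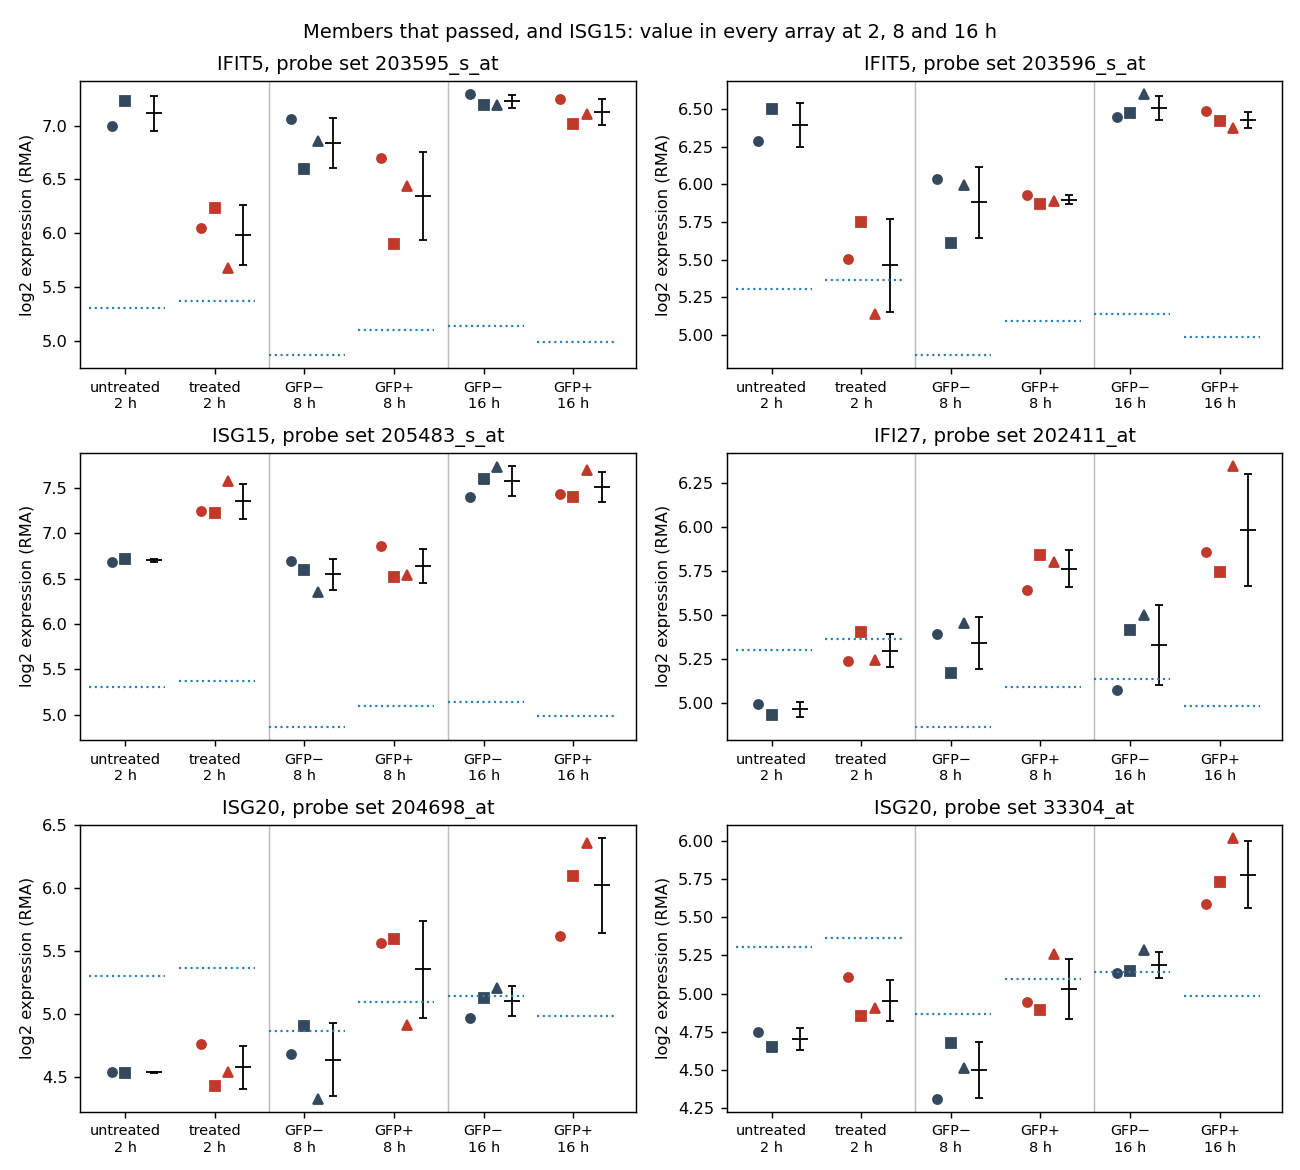
Log2 expression in every array at 2, 8 and 16 h for the probe sets of the 3 genes that passed (IFIT5, IFI27, ISG20) and of ISG15; circles, squares and triangles are replicates 1, 2 and 3, black bars are the mean and SD, dotted lines are the background level of the group, and each panel has its own axis. IFIT5 lies lower in all 3 treated arrays at 2 h, and ISG20 lies higher in all GFP+ arrays at 8 and 16 h.

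At 8 h the comparison is between GFP+ cells and GFP- cells of the same cultures. ISG20, an exonuclease that degrades single-stranded RNA, was higher in GFP+ cells on both probe sets, by 1.65-fold and 1.44-fold. These were the 2 members that passed (2.9% of 69), and no member passed as lower. Over all probe sets 3772 (6.91%) passed, 1504 higher (2.75%) and 2268 lower (4.15%). At an unadjusted p under 0.05 there were 7 members, against 11472 probe sets (21%) in all.

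ISG20 probe set 204698_at read 4.68, 4.90 and 4.33 log2 units in GFP- cells, and 5.56, 5.59 and 4.91 in GFP+ cells. Probe set 33304_at read 4.31, 4.68 and 4.51 in GFP- cells, and 4.94, 4.89 and 5.26 in GFP+ cells. The groups did not overlap on either, though the lowest GFP+ array and the highest GFP- array of 204698_at nearly met at 4.91 and 4.90. The log2 changes were 0.72 (SE 0.19, limma adjusted p = 0.0331) and 0.53 (SE 0.13, limma adjusted p = 0.0175), with n = 3 arrays in each group. The GFP- means, 4.64 ± 0.29 and 4.50 ± 0.18 (SD, n = 3), were near background, as was the GFP+ mean of 33304_at, 5.03 ± 0.20 (SD, n = 3); the GFP+ mean of 204698_at was 5.36 ± 0.39 (SD, n = 3). Both calls were lost when all 23 arrays were fitted together (limma adjusted p = 0.199 and 0.148), when the 8 h arrays were fitted alone (0.0785 and 0.0588), and without untransfected replicate 1, where 0 members passed. Only 1 member passed without untransfected replicate 3, transfected replicate 2 or transfected replicate 3, the last being the array with the source name of 16 h. Probe set 204698_at lost its call without untransfected replicate 3 (limma adjusted p = 0.145) and without transfected replicate 1 or 2 (0.117 and 0.142). Without transfected replicate 1, 1 member passed as higher and 1 as lower. Without untransfected replicate 2, 2 passed as higher and 1 as lower.

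Arrays of the same replicate number deviated together at 8 h, and with that number as a block 5 members passed: 3 higher and 2 lower. IFI27, a small membrane protein of mitochondria and the nuclear envelope, joined ISG20. It read 5.39, 5.17 and 5.46 log2 units in GFP- cells, and 5.65, 5.84 and 5.80 in GFP+ cells, with no overlap (log2 change 0.42, limma adjusted p = 0.0820 without the block and 0.0444 with it). IFIT1 read 5.41, 4.66 and 5.06 in GFP- cells, and 4.56, 4.32 and 4.59 in GFP+ cells. All 3 GFP+ values of IFIT1 lay below all GFP- values and near background (log2 change -0.56, limma adjusted p = 0.0951 without the block and 0.0209 with it).

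The probe sets of IFIT5 disagreed at 8 h. On 203595_s_at it read 7.06, 6.60 and 6.86 in GFP- cells, and 6.70, 5.90 and 6.44 in GFP+ cells, a log2 change of -0.49 (limma adjusted p = 0.107, and 0.00677 with the replicate block). Probe set 203596_s_at read 6.04, 5.61 and 5.995 in GFP- cells, and 5.93, 5.87 and 5.89 in GFP+ cells, a log2 change of 0.02 (limma adjusted p = 0.963). On the first probe set each GFP+ array was below the GFP- array of its own number, while the second showed overlapping groups. ISG15 read 6.69, 6.60 and 6.35 in GFP- cells and 6.86, 6.51 and 6.54 in GFP+ cells, which overlapped (log2 change 0.09, limma adjusted p = 0.752). Over the 69 probe sets the changes at 8 h ran from -0.56 to 0.72 with a median of 0.01, against 0.00 for all probe sets.

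**Figure D3:**
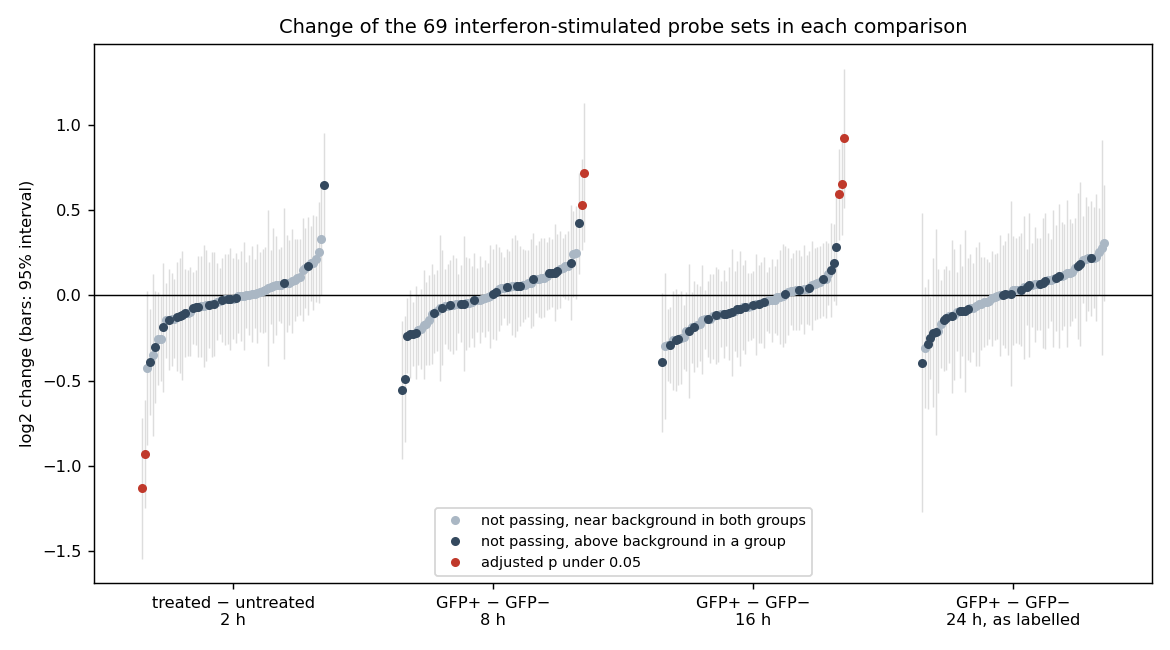
Log2 change of each of the 69 probe sets in each comparison (points sorted by size, grey bars the 95% interval), coloured by whether the probe set passed and whether it was near background. Points that passed are the 2 of IFIT5 at 2 h (lower), 2 of ISG20 at 8 h, and 2 of ISG20 with 1 of IFI27 at 16 h (higher), while the median member lies between -0.05 and 0.03 in the 4 comparisons.

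At 16 h ISG20 and IFI27 were higher in GFP+ cells, by 1.90-fold and 1.51-fold on the ISG20 probe sets and by 1.57-fold for IFI27. These 3 probe sets (4.35% of 69) were the members that passed, all of them higher. Over all probe sets 2420 (4.43%) passed, 1348 higher (2.47%) and 1072 lower (1.96%), so the share of members was close to that of the array. At an unadjusted p under 0.05 there were 6 members, against 9772 probe sets (17.9%) in all.

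ISG20 probe set 204698_at read 4.97, 5.13 and 5.20 log2 units in GFP- cells, and 5.62, 6.09 and 6.36 in GFP+ cells. Probe set 33304_at read 5.13, 5.14 and 5.28 in GFP- cells, and 5.58, 5.73 and 6.02 in GFP+ cells. Every GFP+ array was above every GFP- array on both, and both GFP+ means were above background. The log2 changes were 0.92 (SE 0.19, limma adjusted p = 0.0116) and 0.59 (SE 0.13, limma adjusted p = 0.0130), from means of 5.10 ± 0.12 and 5.19 ± 0.08 in GFP- cells to 6.02 ± 0.38 and 5.78 ± 0.22 in GFP+ cells (SD, n = 3). IFI27 read 5.07, 5.42 and 5.50 in GFP- cells, and 5.86, 5.75 and 6.35 in GFP+ cells. The groups again did not overlap (log2 change 0.65, SE 0.14, limma adjusted p = 0.0136).

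Replicate 3 of the GFP+ cells was the highest array on all 3 of these probe sets. Without it 0 members passed (limma adjusted p = 0.0605 and 0.0655 for ISG20, 0.0594 for IFI27), and with all 23 arrays in 1 fit none did (0.170, 0.179 and 0.106). IFI27 was also lost without untransfected replicate 1 (limma adjusted p = 0.0559), and ISG20 33304_at without untransfected replicate 2 (0.0547). With the 16 h arrays alone, only ISG20 204698_at passed (limma adjusted p = 0.0488, against 0.0612 for 33304_at and 0.118 for IFI27). The hybridization control BioB also differed between the 16 h groups, at 7.91 to 8.31 log2 units in GFP- arrays and 5.67 to 6.13 in GFP+ arrays, and its part in the result was not tested.

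The effect of ISG20 did not differ detectably between the times: its change at 16 h minus that at 8 h was 0.20 log2 units (SE 0.27, limma adjusted p = 0.858) on 204698_at and 0.06 (SE 0.18, limma adjusted p = 0.944) on 33304_at. For IFI27 the difference was 0.23 (SE 0.20, limma adjusted p = 0.763). In this test of the difference itself 0 members passed (2 at an unadjusted p under 0.05), against 1 probe set of all (0.00183%, and 4850 or 8.88% unadjusted). At 2 h ISG20 had changed by 0.04 and 0.25 log2 units, near background in both groups. IFI27 read 4.99 and 4.93 in untreated cells and 5.24, 5.41 and 5.25 in treated cells at 2 h, without overlap and likewise near background (log2 change 0.33, limma adjusted p = 0.513).

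No IFIT gene passed at 16 h. IFIT1 read 6.01, 5.94 and 6.24 log2 units in GFP- cells, and 5.41, 5.84 and 5.76 in GFP+ cells. It was again lower in all 3 GFP+ arrays, and did not pass (log2 change -0.39, limma adjusted p = 0.296). IFIT5 changed by -0.10 and -0.08, and ISG15 by -0.07 (limma adjusted p = 0.845). The next smallest p values, none of them passing, were those of XAF1 206133_at (-0.29, near background), the leucine zipper protein gene IFI35 (-0.29) and OAS3 232666_at (-0.25, near background), with limma adjusted p of 0.115, 0.137 and 0.144.

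Over the 69 probe sets the changes at 16 h ran from -0.39 to 0.92 with a median of -0.05, against -0.04 over all probe sets. For 27 of the 28 member probe sets above background in either group the 95% interval lay under a 2-fold rise, and the exception was ISG20 204698_at, whose interval ran from 0.51 to 1.33 log2 units. At 8 h the same held for 24 of 25, with the same exception (0.31 to 1.13).

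None of the members that encode transcription factors passed. STAT2 probe set 225636_at read 7.58 and 7.63 log2 units in untreated and 7.58, 7.61 and 7.58 in treated cells at 2 h. At 8 h it read 7.70, 7.53 and 7.34 in GFP- and 7.59, 7.62 and 7.53 in GFP+ cells, and at 16 h 8.19, 8.25 and 8.43 against 8.16, 8.22 and 8.58. The groups overlapped at each time, and so did those of 217199_s_at, whose values lay between 4.79 and 5.30. The third STAT2 probe set, 205170_at, overlapped at 2 and 8 h and separated at 16 h, with 4.91, 5.38 and 4.81 in GFP- against 4.78, 4.66 and 4.78 in GFP+ cells, both near background (log2 change -0.30, limma adjusted p = 0.483). IRF9, the DNA-binding partner of STAT2, read 6.39 and 6.69 against 6.49, 6.16 and 6.41 at 2 h, 5.88, 5.54 and 5.93 against 6.32, 5.66 and 5.92 at 8 h, and 6.53, 6.62 and 6.87 against 6.90, 6.81 and 7.15 at 16 h, the GFP+ or treated arrays second. These groups overlapped too.

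IRF1, an early activator of antiviral and inflammatory genes, read 5.78 and 5.99 on 202531_at in untreated cells, and 5.87, 5.78 and 5.62 in treated cells. Its GFP- arrays read 5.39, 5.86 and 5.65 at 8 h and 6.06, 6.47 and 6.02 at 16 h, and its GFP+ arrays 5.74, 5.85 and 5.72, then 6.13, 5.87 and 6.19. The groups of IRF1 overlapped at all 3 times on this probe set. Probe set 238725_at overlapped at 2 and 8 h and separated narrowly at 16 h, with 5.61 in each GFP- array against 5.63, 5.68 and 5.79. IRF7, which amplifies interferon production, was above background only at 2 h, at 5.42 and 5.57 in untreated and 5.62, 5.45 and 5.34 in treated cells. At 8 h its arrays read 4.87, 4.55 and 4.85 in GFP- and 4.47, 4.76 and 4.45 in GFP+ cells, and at 16 h 4.90, 4.95 and 5.06 against 4.99, 4.79 and 4.86. Over STAT2, IRF1, IRF7 and IRF9 (7 probe sets), changes at 2, 8 and 16 h ran from -0.35 to 0.28 log2 units, 0 passed, and the smallest limma adjusted p was 0.342.

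Among effectors above background, no probe set of EIF2AK2 or the IFITM genes passed. EIF2AK2 probe set 213294_at read 8.59 and 8.78 in untreated and 8.59, 8.45 and 8.59 in treated cells at 2 h. Its GFP- and GFP+ arrays overlapped at 8 h (7.55, 7.75 and 8.10 against 7.65, 7.78 and 7.80) and at 16 h (8.84, 8.65 and 8.49 against 8.76, 8.61 and 8.50). Changes of the 3 EIF2AK2 probe sets over these times ran from -0.26 to 0.13 log2 units, and the 95% intervals reached no higher than 0.36. IFITM3 read 6.85 and 7.01 in untreated and 6.81, 6.88 and 7.03 in treated cells at 2 h. Sorted cells gave 6.50, 6.52 and 6.48 in GFP- against 6.81, 6.44 and 6.27 in GFP+ at 8 h, and 6.99, 7.18 and 7.32 against 7.12, 6.80 and 7.03 at 16 h. Changes of the 4 IFITM probe sets ran from -0.23 to 0.17. Of the 4, 3 carry the suffix _x_at and the other _s_at, both of which Affymetrix gives to probe sets shared between transcripts. IFITM1, IFITM2 and IFITM3 are closely similar in sequence, so whether the 3 genes were read separately is uncertain.

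MX1 and OAS1, classical markers of an interferon response, were read at the level of silent genes. MX1 probe set 202086_at read 3.57 and 3.35 in untreated and 3.65, 3.65 and 3.25 in treated cells at 2 h. In sorted cells it read 3.26, 3.29 and 3.75 in GFP- against 3.49, 3.24 and 3.55 in GFP+ at 8 h, and 3.85, 3.91 and 4.01 against 3.92, 3.74 and 4.10 at 16 h. The groups overlapped throughout. OAS1 probe set 202869_at read 3.07 and 3.07, against 2.94, 3.17 and 3.09, at 2 h. At 8 h it read 3.26, 3.12 and 2.96 against 3.30, 3.38 and 2.97, and at 16 h 3.17, 3.10 and 3.19 against 3.34, 3.04 and 3.18, in GFP- and GFP+ cells. Its probe set 205552_s_at lay between 2.53 and 3.77, with overlapping groups at each time. Over the OAS family (9 probe sets of OAS1, OAS2, OAS3 and OASL) the changes at the 3 times ran from -0.25 to 0.24 log2 units, and over MX1 and MX2 from -0.26 to 0.06. None of these passed.

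The other small groups gave 0 passing probe sets at 2, 8 and 16 h. Changes ran from 0.00 to 0.05 for BST2 (tetherin, which holds budding viruses at the cell surface), from -0.07 to 0.21 for RSAD2 and CMPK2, and from -0.02 to 0.19 for IFI44 and IFI44L. For PARP9 and PARP14, which add ADP-ribose to proteins, they ran from -0.25 to 0.25, and for SAMD9 and SAMD9L from -0.25 to 0.19. Within DDX60, EPSTI1, IFI35, PLSCR1 and XAF1 the range was -0.39 to 0.16. In bulk RNA from a sorted gate or an unsorted culture, a change in a few cells and a small change in all of them cannot be told apart.

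The rest of the pathway was followed through lists of ligands and receptors, signalling genes and other induced effectors. Among 25 probe sets of 17 ligand and receptor genes, 1 was lower at 2 h, 2 were higher and 4 lower at 8 h, and 3 were higher at 16 h. These were 4%, 24% and 12% of the list, beside 0.549%, 6.91% and 4.43% of all probe sets, and 4 of the 6 at 8 h belong to 1 gene, IFNAR1. Of the 44 probe sets of 16 signalling genes, 1 passed at 8 h (SOCS1, an inhibitor of the kinases, log2 change -0.34, limma adjusted p = 0.0481, near background) and 0 at 2 or 16 h. Among 80 probe sets of 32 further induced effectors, 1 passed at 8 h (SP100, a nuclear body protein, log2 change 0.37, limma adjusted p = 0.00845, near background) and 0 at 2 or 16 h. Their shares at 8 h, 2.27% and 1.25%, lay below the 6.91% of all probe sets. The SOCS1 call was lost with all 23 arrays in 1 fit (limma adjusted p = 0.0877), with the 8 h arrays alone (0.124) and without any 1 of 5 of the 6 arrays of 8 h (0.0707 to 0.193), and the SP100 call with the 8 h arrays alone (0.0687).

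The receptor subunit gene IFNAR1 accounted for 3 of the 4 lower probe sets at 8 h. Probe set 225661_at read 6.71, 6.85 and 6.93 log2 units in GFP- cells, and 5.82, 5.93 and 6.10 in GFP+ cells. Every GFP+ array lay below every GFP- array by a wide margin (log2 change -0.88, 1.84-fold lower, limma adjusted p = 0.00265). Probe set 225669_at read 6.97, 6.997 and 6.83 in GFP- cells, and 6.18, 6.38 and 6.42 in GFP+ cells (log2 change -0.60, limma adjusted p = 0.0147). Probe set 204191_at read 4.82, 4.94 and 5.10 in GFP- cells, and 4.24, 4.24 and 4.71 in GFP+ cells (log2 change -0.55, limma adjusted p = 0.0260). The 3 probe sets thus fell together at 8 h.

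A further IFNAR1 probe set, 236478_at, went the other way. It read 6.02, 5.41 and 5.90 in GFP- cells and 6.39, 6.51 and 6.50 in GFP+ cells at 8 h (log2 change 0.69, limma adjusted p = 0.0138). At 16 h it read 6.53, 6.29 and 6.66 against 7.10, 6.92 and 7.56 (log2 change 0.70, limma adjusted p = 0.0173). Neither comparison overlapped. At 16 h the other 3 probe sets changed by -0.19, -0.43 and -0.46 and did not pass (limma adjusted p = 0.133 and 0.0737 for 225661_at and 225669_at). The stretch of transcript that each probe set reads was not examined here, so no direction is given for IFNAR1 as a gene. With all 23 arrays in 1 fit, 225661_at and 225669_at still passed at 8 h (limma adjusted p = 0.0103 and 0.0269), and 204191_at and 236478_at did not (0.153 and 0.106). Of the 8 h calls, 225661_at kept its own without any 1 array, 225669_at lost it without untransfected replicate 2 or transfected replicate 1 (0.0559 and 0.0603), 236478_at without replicate 2 of either group (0.0672 and 0.0535), and 204191_at without any 1 of 4 of the 6 arrays of 8 h (0.0645 to 0.113). The 16 h call of 236478_at was lost with all 23 arrays (0.174), with the 16 h arrays alone (0.0903), and without untransfected replicate 2 (0.0880) or transfected replicate 3 (0.0817).

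**Figure D4:**
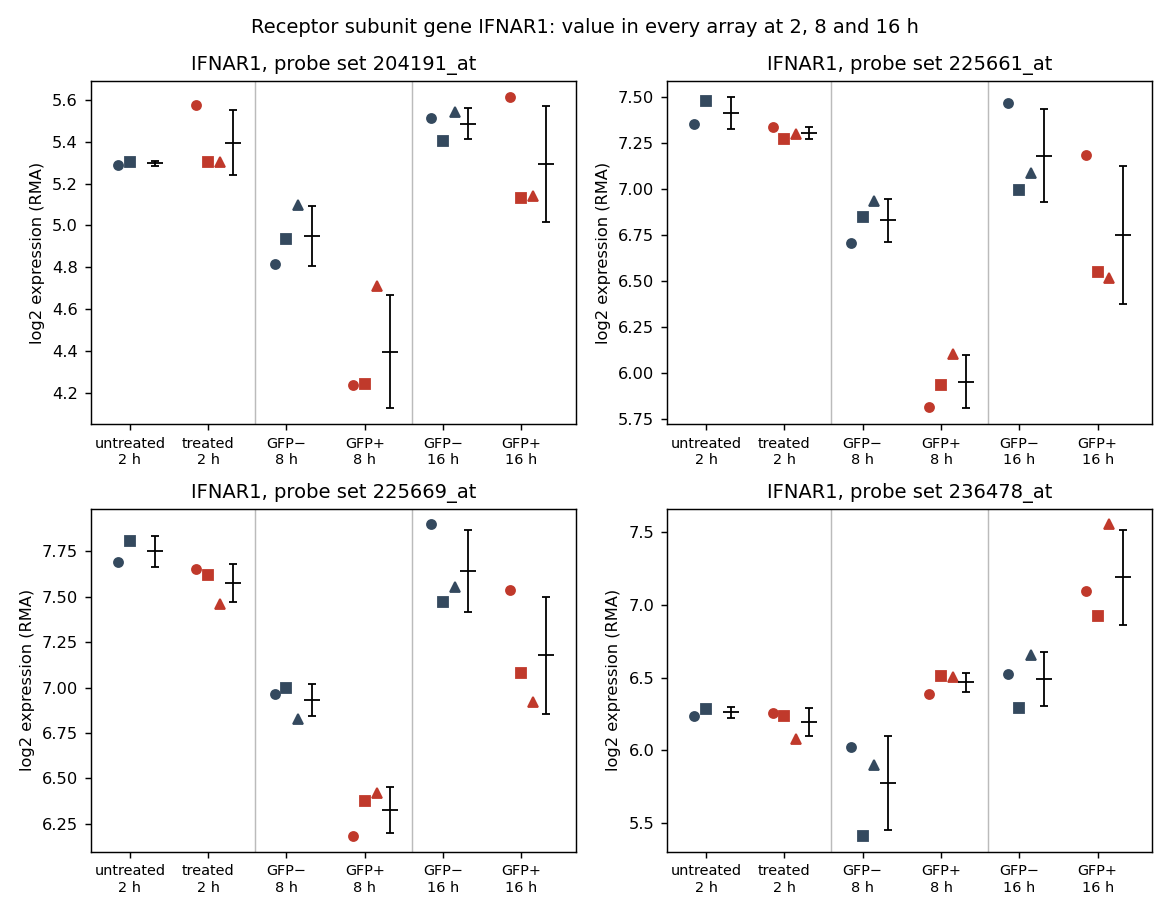
Log2 expression of the 4 IFNAR1 probe sets in every array at 2, 8 and 16 h; circles, squares and triangles are replicates 1, 2 and 3, black bars are the mean and SD, and each panel has its own axis. At 8 h the GFP+ arrays lie below the GFP- arrays on 204191_at, 225661_at and 225669_at and above them on 236478_at.

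Subunits of the receptor for type III interferons also differed. IL28RA (now IFNLR1), its specific chain, read 6.07, 5.995 and 6.10 in GFP- cells and 5.57, 5.40 and 5.72 in GFP+ cells at 8 h, with no overlap (log2 change -0.49, limma adjusted p = 0.00537). IL10RB, the chain shared with the interleukin-10 receptor, fell in treated cells at 2 h from 7.55 and 7.33 to 6.78, 6.95 and 7.06 (log2 change -0.51, limma adjusted p = 0.0463). That call was lost without any 1 of the 5 arrays of 2 h (limma adjusted p = 0.0725 to 0.241), with all 23 arrays in 1 fit (0.0778), with the 2 h arrays alone (0.378), and with quantile normalization, the replicate block or a variance trend (0.0724, 0.0539 and 0.0579). At 16 h it was higher in GFP+ cells, 8.03, 7.80 and 7.97 against 7.55, 7.47 and 7.63 (log2 change 0.39, limma adjusted p = 0.0328), a call lost with all 23 arrays (0.121), with the 16 h arrays alone (0.103) and without any 1 of 5 of the 6 arrays of 16 h (0.0533 to 0.130). IFNA5, 1 of the type I interferon genes, passed as higher at 8 h (2.68, 2.86 and 2.76 against 1.97, 2.12 and 2.33, log2 change 0.63, limma adjusted p = 0.00358). It passed at 16 h too (3.05, 3.13 and 3.52 against 2.77, 2.85 and 2.73, log2 change 0.45, limma adjusted p = 0.0326), though not with all 23 arrays (0.158) or the 16 h arrays alone (0.141). The 16 h call was also lost without untransfected replicate 1, 2 or 3 (limma adjusted p = 0.0734, 0.0683 and 0.103) or transfected replicate 3 (0.143). All of these IFNA5 expression values were far under the background level, where a signal cannot be assigned to its gene.

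At 24 h the arrays were compared as labelled, in a fit of their own. No member passed, and neither did any probe set (0 of 54613, 0%), with 2 members and 1516 probe sets (2.78%) at an unadjusted p under 0.05. ISG20 and IFI27 spread widely within each label. On 204698_at the arrays labelled GFP- read 5.65, 5.85 and 4.91 log2 units, and those labelled GFP+ 4.76, 4.53 and 5.93. On 33304_at they read 5.61, 5.50 and 4.93 against 4.92, 4.81 and 5.67. In both, replicate 3 was the lowest GFP- array and the highest GFP+ array. IFI27 read 5.58, 5.58 and 5.10 against 4.94, 5.15 and 5.52, with the same order. The log2 changes as labelled were -0.40 and -0.22 for ISG20 and -0.22 for IFI27, limma adjusted p = 0.978 each.

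The authors' deposited 24 h table gives other group means, which equal those of the labelled arrays for 0 of 54675 probe sets, whereas at 2, 8 and 16 h all of them are equal. In the authors' deposited table, ISG20 at 24 h was 5.46 in GFP+ and 4.92 in GFP- cells on 204698_at (log2 change 0.54, posterior probability 0.897), and 5.15 against 4.50 on 33304_at (log2 change 0.65, posterior probability 0.996). IFI27 stood at 5.52 against 5.14 in the authors' deposited table (log2 change 0.38, posterior probability 0.607). The sign for these probe sets is thus opposite to that of the arrays as labelled, and over the 69 members the authors' deposited changes had the sign of the labelled arrays for 20. Since the labelled arrays and that table do not match, no direction is given for 24 h.

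**Figure D5:**
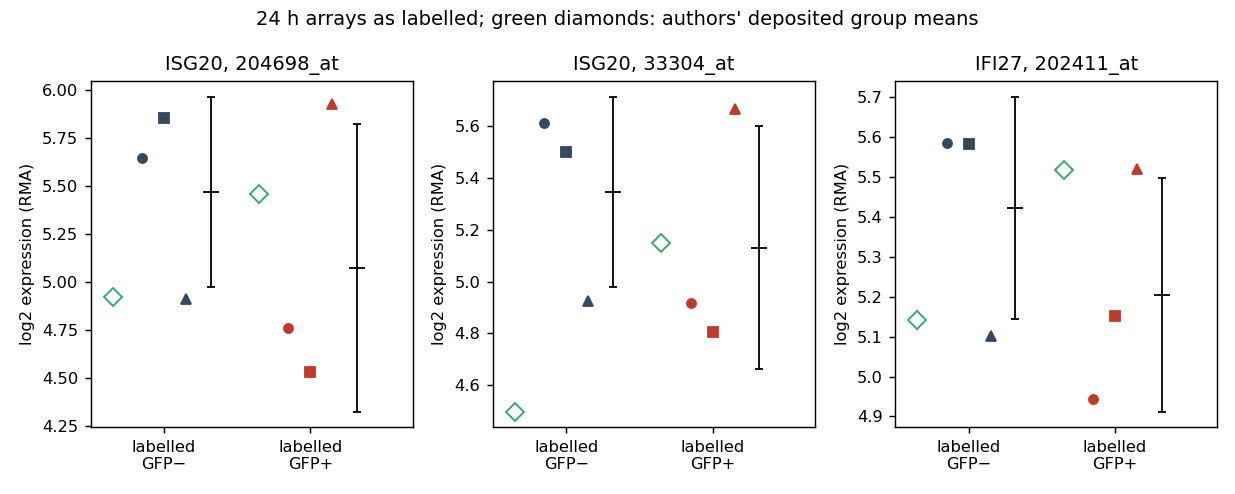
Log2 expression at 24 h of ISG20 (both probe sets) and IFI27 in the arrays as labelled (circles, squares and triangles for replicates 1, 2 and 3, black bars the mean and SD), with the authors' deposited group means as open green diamonds. The deposited GFP+ mean is above the deposited GFP- mean in each panel, while the labelled arrays overlap and their means run the other way.

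Among members with the smallest p at 24 h, IRF1 238725_at read 5.66, 5.58 and 5.55 in arrays labelled GFP- and 5.37, 5.24 and 5.42 in those labelled GFP+, without overlap (log2 change -0.25). IFIT2 217502_at read 4.35, 4.49 and 4.61 against 4.79, 4.75 and 4.68 (log2 change 0.26). RSAD2 213797_at read 3.56, 3.45 and 3.59 against 3.54, 4.01 and 3.97 (log2 change 0.31), and SAMD9L 230036_at read 3.47, 3.81 and 3.81 against 3.41, 3.16 and 3.60 (log2 change -0.31). Each had a limma adjusted p of 0.978, and the last 3 were near background. In the authors' deposited table the members' changes at 24 h ran from -0.48 (IFI35) to 0.65 (ISG20), and 1 of 69 had a posterior probability over 0.9, against 2745 (5.02%) of all probe sets. The authors' deposited tables for the earlier times gave 0 members of this kind at 2 h, where 432 probe sets (0.79%) had one, 0 at 8 h (1724, 3.15%) and 2 at 16 h (1241, 2.27%), the latter both ISG20, at 0.992 and 0.926.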

How the data were processed

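RNA of cultures or sorted populations was hybridized to 23 Affymetrix arrays as biotin-labelled cRNA. Per the labels' protocols, RNA was extracted with Trizol and a column, or with Trizol alone at 24 h. Per the submitters' processing notes, the authors made log2 expression values by RMA, in R 2.11.1 for 2, 8 and 16 h and in R 2.9.0 for 24 h, where limma is named too. The genome build is not given in the sources used here. For each time the authors deposited group means in log2 units, log2 changes and a score between 0 and 1 headed posterior probability, whose model is not given in the sources used here. The authors' deposited fold column is a ratio at 16 h and, at the other times, a score equal to the square of the log2 change, and it was not used. The authors' deposited means equal those of the labelled arrays at 2, 8 and 16 h for each of 54675 probe sets, within 1e-06, and at 24 h for 0 of them, where the median absolute difference was 0.190 for GFP+ and 0.154 for GFP- cells.

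The members, lists and design were chosen with earlier results of these data known. Probe sets were assigned by the symbols in the deposited tables, and 62 control probe sets were left out. The 17 arrays of 2, 8 and 16 h were fitted in 1 model with 6 group means (two-sided tests by lmFit and eBayes of limma 3.58.1, R 4.3.3), and the 6 arrays of 24 h alone, as labelled, because they were processed otherwise and spread widely within their labels. Passing meant p under 0.05 after Benjamini-Hochberg adjustment over 54613 probe sets. Levels were not compared between times, which lie apart in scale. Full values are given for members that passed, for the 4 with the smallest p at 24 h, and for ISG15, IFIT1, IFIT5, MX1, OAS1, STAT2, IRF1, IRF7, IRF9, IFITM3 and EIF2AK2; other members named were chosen after their values were seen. At 8 h the deviations of same-numbered arrays from their group means correlated in every pair (r = 0.26, 0.24 and 0.324). The main fit was unpaired, and the number paired arrays only in the fits with a replicate block, which covered every time. This pairing comes from the data, since no label gives the day. Alternatives were all 23 arrays in 1 fit, each time alone, quantile normalization, median centring, a filter on the lower 40%, a replicate block, 1 probe set per gene, a variance trend and leaving out each array. The procedure was also run on simulated data with independent normal noise. These lacked the replicate pairing and the repeated values of 2 h, and nothing is concluded from them here. The number of arrays limits the precision.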

Additional observations from a re-analysis of the deposited data

How the results depend on the processing

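The count of members that passed at 2 h was 2 and became 0 when each time was fitted alone, while leaving out 1 array in turn gave 0 to 3. At 8 h the 2 became 0 with all 23 arrays in 1 fit, 0 when each time was fitted alone, 1 with the brightest probe set per gene and 5 with the replicate block, and 0 to 3 without 1 array. At 16 h the 3 became 0 with all 23 arrays, 1 when each time was fitted alone, and 0 to 3 without 1 array. The replicate block changed the count at no other time than 8 h. At 16 h same-numbered arrays correlated at r = 0.317, 0.091 and 0.443, at 24 h at -0.058, -0.209 and -0.36, and at 2 h only 2 pairs exist. At 24 h, and for the 16 h change minus the 8 h change, 0 members passed under every alternative tried. Quantile normalization, median centring, the filter and the variance trend moved no count of members by over 1.5 times. The small change of IFIT5 203596_s_at at 8 h turned to -0.0058 with median centring, and ran from -0.12 to 0.10 without 1 array. ISG15 at 2 h passed with the brightest probe set per gene (limma adjusted p = 0.0422) and with the lower 40% left out (0.0498). It could also pass when an array was left out (smallest limma adjusted p = 0.0457). At 2 h, 1 member passed as higher without untransfected replicate 3 or transfected replicate 1 of 8 h, or transfected replicate 3 of 16 h. The 2 h calls thus depended in part on arrays of other times, which share the estimate of spread. Over all probe sets, the 300 calls at 2 h became 107 with all 23 arrays, 0 alone and 147 over genes; the 3772 at 8 h became 1170 and 1843, and the 2420 at 16 h became 32 and 675, in the first 2 of these settings. With the replicate block there were 5131 at 8 h and 3685 at 16 h. The cause of these shifts was not tested. Of the single probe sets followed through the alternatives, 741 values kept direction and side of the threshold, 89 no longer passed, 12 passed in addition and 2 reversed. Signal over background limits 39 of the 69 probe sets, which were near background in every group.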
